A study of Homo sapiens with 14 samples.

Results

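The RNA-rich barcodes were the cells above the upper limits of a filter on genes and UMIs per cell. They were taken from 8 single-cell libraries of SW620, a human colorectal cancer cell line, and of SW620-TET2CD, the same line expressing the catalytic domain (CD) of TET2, an enzyme that oxidises 5-methylcytosine. A UMI is a molecular tag that marks 1 captured RNA molecule, and a barcode is the sequence that marks 1 droplet, which can hold 1 cell or more. Among barcodes with at most 10% of UMIs in mitochondrially encoded genes, a barcode was RNA-rich if it had more than 4500 genes or more than 20000 UMIs. The reference barcodes of the same library had 200 to 4500 genes and 1000 to 20000 UMIs. Of 67056 barcodes, 6877 (10.3%) were RNA-rich and 48282 were reference barcodes. A further 11509 exceeded the mitochondrial limit, 394 of them past an upper limit as well, and 388 lay below a lower limit.

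Colonies of each line were grown without passage and sampled on days 6, 9, 12 and 15, with 1 library per line and day. The labels call the control line SW620, and the study's text describes it as carrying the FLAG vector. Days 6 and 9 are called early and days 12 and 15 late. No line and day was replicated, so every test over libraries measured the spread between libraries of different days or lines, and line, day and library cannot be told apart for a single library.

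Cells that divide copy their DNA in S phase, when minichromosome maintenance (MCM) helicase genes, PCNA and histone genes are transcribed, and in G2 and mitosis they express cyclin B, CDK1 and the kinases and motors of the spindle. A cell roughly doubles its contents before it divides, and total UMIs per barcode follow the RNA content of the cell, how well the droplet captured RNA, and the number of cells in the droplet. High-UMI barcodes are often removed because pairs of cells are among them.

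The values that chose the members are given here as a description. Both limits were passed by 5121 RNA-rich barcodes, 1404 passed only the limit on genes and 352 only that on UMIs. Their UMIs had a minimum of 10995 and a median of 23010, and 364 barcodes held more than 40000 UMIs. The median number of genes was 4981 and the largest 8809. Near the limits, 475 barcodes lay within 500 UMIs below 20000 and 393 within 500 above, and 434 lay within 50 genes below 4500 and 391 within 50 above, so barcodes lay on both sides of each limit without a gap.

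The 8 libraries held 5790 to 10713 barcodes and 60309495 to 128282918 UMIs. RNA-rich barcodes made up 26.6% of the RNA-rich and reference barcodes of SW620 on day 6 (exact Clopper-Pearson 95% interval 25.6 to 27.6, counting error only), 1.15% on day 9 (0.918 to 1.41), 22.5% on day 12 (21.4 to 23.7) and 1.83% on day 15 (1.53 to 2.17). In SW620-TET2CD the shares were 5.11% (4.65 to 5.60), 14.2% (13.5 to 15.0), 29.0% (27.8 to 30.2) and 6.51% (5.91 to 7.15) on the same days. The members therefore came mostly from 4 libraries, with 2012, 1142, 1070 and 1588 barcodes in SW620 day 6, SW620 day 12, SW620-TET2CD day 9 and SW620-TET2CD day 12. The remaining libraries held 87 (SW620 day 9), 129 (SW620 day 15), 439 (SW620-TET2CD day 6) and 410 (SW620-TET2CD day 15). In the order of libraries just used for the shares, the reference barcodes had a median of 13479, 6640, 13111 and 7127 UMIs in SW620 and 8616, 11152, 12379 and 8311 in SW620-TET2CD. The 3 libraries with the deepest reference barcodes held the 3 highest RNA-rich shares.

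**Figure D1:**
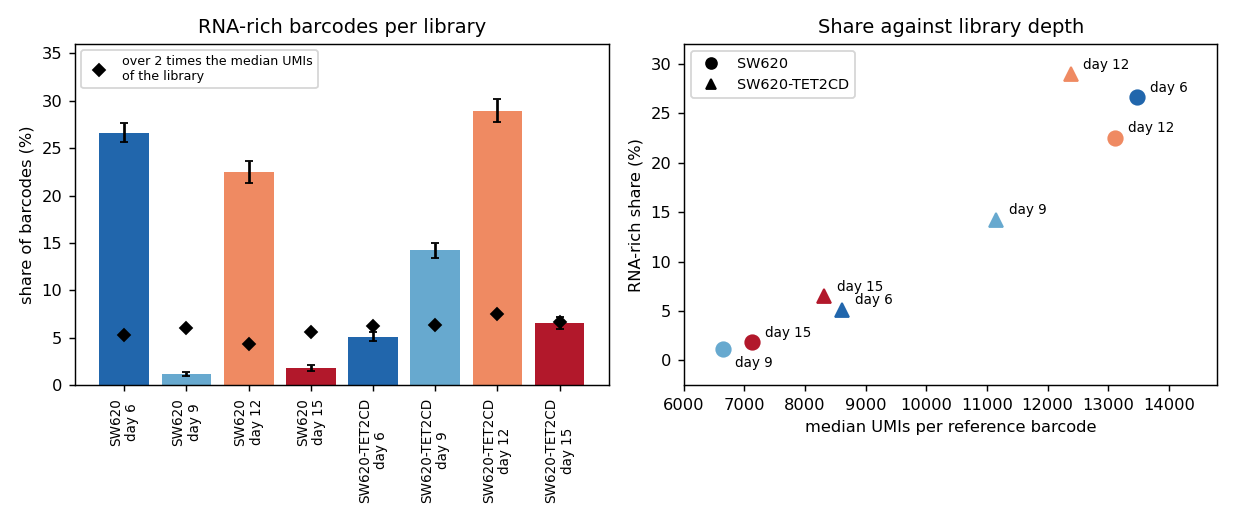
Left, bars give the RNA-rich share of RNA-rich and reference barcodes (%) in each library, with exact 95% Clopper-Pearson intervals, and diamonds the share of barcodes above 2 times the median UMIs of the library. Right, the same share is plotted against the median UMIs per reference barcode, with circles for SW620 and triangles for SW620-TET2CD. The bars run from 1.15% to 29.0% and the diamonds from 4.34% to 7.55%.

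The share is set by the limits that chose the members, so its differences are a description. An exact permutation test over these 8 libraries could not have gone below p = 0.0556 for days or p = 0.125 for lines. The mean share of the late libraries was 3.18 percentage points above that of the early ones, and that of SW620-TET2CD was 0.678 points above SW620. Leaving out 1 library moved the 2 differences to between -3.19 and 9.55 and between -3.46 and 8.07 points, with the lowest values reached without SW620 day 9 and, for the lines, without day 9 of either line. With the limit set for each library at 2 times its own median UMIs, the share ran only from 4.34% to 7.55% and the differences were 0.065 and 1.38 points.

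As a list, colorectal epithelial transcripts took a similar range of UMI shares in RNA-rich and reference barcodes. Within libraries several of the markers took a smaller share in the RNA-rich barcodes, as given with the lists below. The 12 epithelial markers took 0.841% to 1.47% of UMIs in the RNA-rich sums and 0.942% to 1.40% in the reference sums. KRT18, a keratin of simple epithelia, was at 4317 to 7843 CPM (UMIs of the gene scaled to a fixed total for each sum) and EPCAM, an epithelial adhesion molecule, at 460.2 to 581.3 CPM in the RNA-rich sums. In the reference sums they were at 4335 to 7254 and 495.6 to 638.8 CPM. The intestinal genes CDX1, CEACAM5, KRT20 and CDH17 stayed below 3 CPM in both groups and were at 0 in 4, 2, 2 and 1 of the 8 RNA-rich sums. Most markers of other cell types were at or near 0, with a few exceptions. The 12 immune markers took 0.000819% to 0.00501% of RNA-rich UMIs and 0.000786% to 0.00582% of reference UMIs, with 4 to 9 of the 12 at 0 in an RNA-rich sum and CD2, MS4A1 and TYROBP at 0 in all 8. CD68, a lysosomal protein of macrophages, was at 1.45 to 30.7 CPM in RNA-rich and 1.199 to 36.9 CPM in reference sums, and LYZ, lysozyme, at 5.08 to 24.8 and 5.33 to 31.5 CPM. The 9 fibroblast markers took 0.000794% to 0.00306% against 0.000849% to 0.00288%, with COL3A1 and FAP at 0 in all 8 RNA-rich sums and LUM, a matrix proteoglycan, at 3.69 to 29.0 and 4.31 to 27.2 CPM. The 7 endothelial markers took 3.26e-05% to 0.00047% against 3.79e-05% to 0.000261%, with EMCN and KDR at 0 in all 8.

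Of 66508 distinct barcode sequences, 548 occurred in at least 2 libraries (11 to 31 for each of the 28 pairs of libraries), 103 of these were RNA-rich at least once, and 5 were RNA-rich in 2 libraries. The median mitochondrial share of RNA-rich barcodes ran from 3.096% to 7.49% and that of reference barcodes from 3.93% to 7.77%, and it was lower in the RNA-rich barcodes of the 4 early libraries and of SW620 day 15.

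The first question was which genes took a larger or smaller share of the RNA in the RNA-rich barcodes than in the reference barcodes of the same library. UMIs were summed per library and group, which cannot tell apart more cells expressing a gene from more RNA of it per cell, and edgeR's quasi-likelihood test was used with the library as a block. Genes of G2 and mitosis rose, led by UBE2C, PLK1 and CDK1, while many immediate early genes and nuclear long non-coding RNAs took smaller shares, as did 12 of 21 hypoxia targets. Of the hypoxia list 19 of 21 were lower on late days fitted alone and 2 of 20 on early days, beside 18.9% and 7.68% of all genes. The totals are scaled away, so a lower value is a smaller share of the RNA and not fewer molecules per cell. At a Benjamini-Hochberg adjusted p under 0.05, 4006 of 16151 genes tested (24.8%) were called, 2113 higher (13.1%) and 1893 lower (11.7%), and the median log2 fold change of all genes was -0.0078. Under upper-quartile scaling the split was 1696 higher and 2584 lower.

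UBE2C is the ubiquitin-conjugating enzyme that works with the anaphase-promoting complex. Its level, in CPM scaled by the trimmed mean of M values (TMM), was 495.1, 356.3, 188.3 and 343.3 in the RNA-rich barcodes of SW620 on days 6, 9, 12 and 15, against 222.7, 229.8, 21.71 and 82.94 in the reference barcodes. In SW620-TET2CD it was 439.8, 378, 234.4 and 189.2 against 284.8, 186, 45.09 and 33.76. The RNA-rich value was the higher one in all 8 libraries, which the rule for naming genes required of this and the other genes among the 10 highest rises and 10 deepest falls. Over all genes tested 7.3% were higher and 7.05% lower in all 8, and nothing is read from the agreement of genes so chosen. The reference level on days 12 and 15 was below every early reference level. The late RNA-rich levels were also below every early RNA-rich level, the closest pair being SW620 day 15 at 343.3 and SW620 day 9 at 356.3 CPM. The log2 fold change was 1.67 ± 0.26 (SE, 8 libraries; edgeR adjusted p = 0.0024).

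CDK1, the kinase that drives entry into mitosis, was at 235, 153.5, 124.2 and 147.5 CPM in RNA-rich and 138.2, 115.5, 16.87 and 42.98 CPM in reference barcodes of SW620, and at 207.8, 178.7, 152.2 and 127.1 against 159.5, 111.1, 29.4 and 25.68 CPM in SW620-TET2CD. PLK1, a kinase of spindle assembly and mitotic exit, was at 144.7, 126.9, 43.06 and 47.34 against 76.91, 93.51, 5.365 and 11.82 CPM in SW620 and at 129.6, 125.4, 68.3 and 48.52 against 96.16, 68.07, 13.96 and 8.759 CPM in SW620-TET2CD. Both genes had the larger ratio, though PLK1 not the larger difference in CPM, on the late days. Their log2 fold changes were 1.44 ± 0.28 and 1.51 ± 0.28 (edgeR adjusted p = 0.0052 and 0.0043).

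The other genes among the 10 highest rises had log2 fold changes of 1.53 (DEPDC1), 1.41 (CENPA, the histone H3 variant of centromeres), 1.40 (HMMR, a spindle-associated protein), 1.38 (KIF2C, a microtubule depolymerase), 1.37 (PIMREG), 1.37 (AURKA, a kinase of centrosomes and spindle poles) and 1.35 (ASPM, a spindle pole protein). The edgeR adjusted p of these genes was at most 0.0103. In GENCODE 44 coordinates on GRCh38, UBE2C lies at chr20:45812576-45816957, CDK1 at chr10:60778331-60794852 and PLK1 at chr16:23677656-23690367, all protein-coding.

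The 3 deepest falls were in non-coding RNAs or unnamed loci, AC245060.5 (log2 fold change -1.04), SLCO4A1-AS1 (-0.94; chr20:62663019-62666724) and KLF3-AS1 (-0.91; chr4:38602438-38664926). The last 2 are annotated as antisense long non-coding RNAs, and their values are uncertain to the extent that reads of a gene on the other strand were counted with them. The kit keeps the strand, and no source read here states the counting setting. The others of the 10 deepest falls were CEACAM1, a cell adhesion molecule (-0.72), LEMD1 (-0.70), KLHL24 (-0.67), HBP1, a transcriptional repressor of cycle genes (-0.67), TMC4 (-0.67), PROM1, the surface protein CD133 (-0.65), and PNRC1, a nuclear receptor coactivator (-0.64 ± 0.073; edgeR adjusted p = 0.00048). PNRC1 was at 14.12, 36.88, 82.12 and 92.98 CPM in RNA-rich against 22.33, 41.89, 145.2 and 137.8 CPM in reference barcodes of SW620, and at 15.83, 26.29, 69.58 and 71.18 against 19.51, 38.17, 131.2 and 128.5 CPM in SW620-TET2CD. Its late RNA-rich levels were below the late reference levels but above the early ones.

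**Figure D2:**
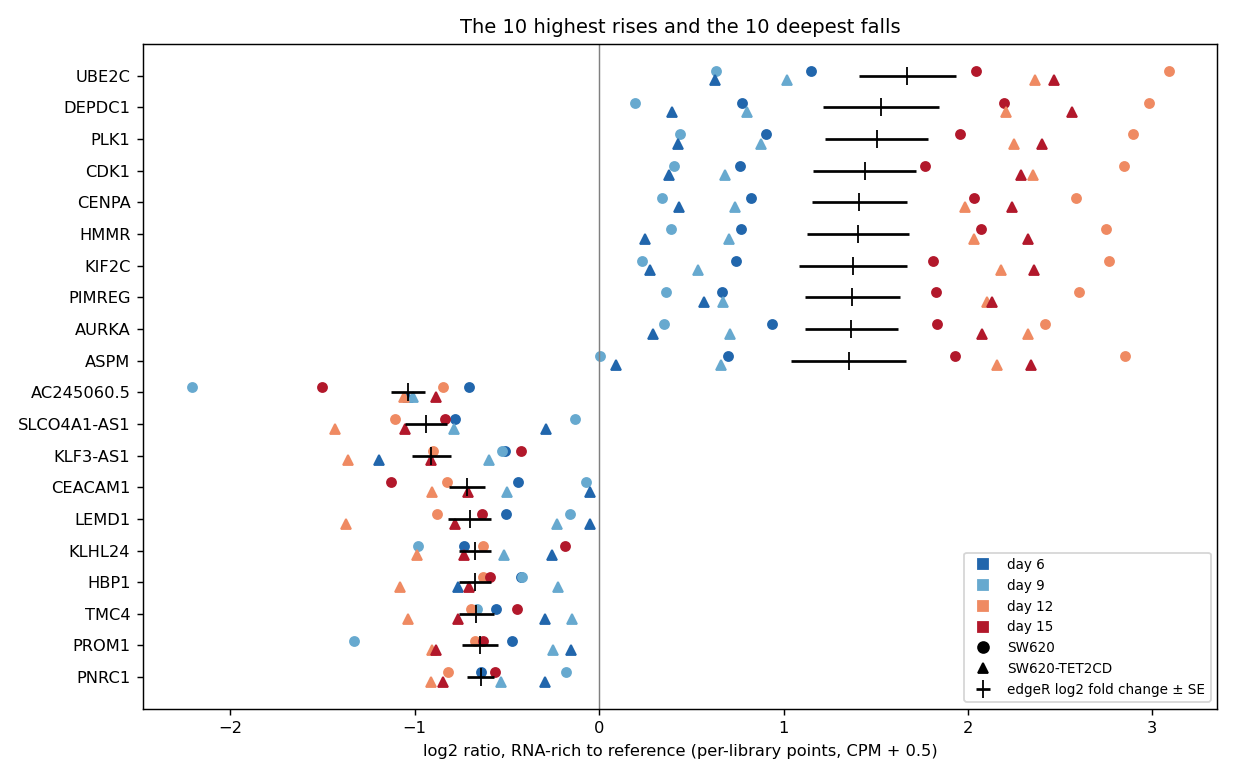
Log2 ratio of RNA-rich to reference CPM (0.5 added to each) for the 10 highest rises and the 10 deepest falls, 1 point per library, coloured by day and shaped by line, with the edgeR log2 fold change ± SE as a black cross. For the 10 rises the late libraries lie to the right of the early ones, as for UBE2C, whose fold change was 1.67.

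Promoter sequences are shown for 4 of the 10 rises, chosen after the motif matches were seen as examples of 1 layout, because these genes rose together and because G2 and mitosis genes are known for a paired promoter layout, a CCAAT box (bound by NF-Y) upstream of a cell cycle genes homology region (CHR), through which the DREAM and MuvB complexes act. They are RefSeq promoters on GRCh38.p14, 250 bases before to 50 after the annotated start, 5′ to 3′ on the gene's strand. Capitals mark matches on either strand to the CCAAT box (CCAAT, which reads as ATTGG on the other strand) and to the CHR (TTTGAA, which reads as TTCAAA on the other strand, and the palindrome TTCGAA).
DEPDC1 (chr1:68497033-68497332, minus strand): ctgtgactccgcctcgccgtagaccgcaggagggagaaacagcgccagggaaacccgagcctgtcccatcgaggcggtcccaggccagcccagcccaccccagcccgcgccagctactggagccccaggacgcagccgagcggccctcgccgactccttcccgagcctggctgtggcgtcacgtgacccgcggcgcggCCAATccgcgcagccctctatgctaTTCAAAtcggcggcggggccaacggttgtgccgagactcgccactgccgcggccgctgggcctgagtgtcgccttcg
PLK1 (chr16:23678639-23678938, plus strand): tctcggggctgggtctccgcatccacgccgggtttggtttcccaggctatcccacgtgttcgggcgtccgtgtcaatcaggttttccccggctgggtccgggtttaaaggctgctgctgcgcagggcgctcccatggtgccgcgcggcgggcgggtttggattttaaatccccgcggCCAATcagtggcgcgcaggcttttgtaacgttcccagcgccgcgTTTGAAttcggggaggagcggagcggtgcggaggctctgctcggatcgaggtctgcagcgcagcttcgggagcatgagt
CENPA (chr2:26785806-26786105, plus strand): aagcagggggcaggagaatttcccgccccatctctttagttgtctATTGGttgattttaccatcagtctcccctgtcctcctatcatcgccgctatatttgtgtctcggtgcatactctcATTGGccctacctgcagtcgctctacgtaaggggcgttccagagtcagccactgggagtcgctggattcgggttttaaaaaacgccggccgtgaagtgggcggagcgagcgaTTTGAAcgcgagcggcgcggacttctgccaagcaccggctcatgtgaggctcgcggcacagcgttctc
HMMR (chr5:163460382-163460681, plus strand): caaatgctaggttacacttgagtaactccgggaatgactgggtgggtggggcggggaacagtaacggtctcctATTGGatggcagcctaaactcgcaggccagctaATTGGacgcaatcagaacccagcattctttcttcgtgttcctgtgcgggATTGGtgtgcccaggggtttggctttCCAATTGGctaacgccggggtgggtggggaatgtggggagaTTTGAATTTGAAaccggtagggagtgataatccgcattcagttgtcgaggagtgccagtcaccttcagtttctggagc

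In these 4 windows a CHR match lay close to the start and downstream of a CCAAT match, which is what they were chosen for. The other 3 of the 10 rises with a promoter in the table differed. In CDK1 the CHR match lay upstream of the CCAAT match, KIF2C held neither, and in ASPM the CHR match lay farther from the start, with CCAAT matches on both sides. Among the 45 of 54 G2 and mitosis genes with a promoter in the table, 33 (73.3%) held a CHR match, 31 (68.9%) a CCAAT match and 27 (60%) both. Over all 27305 promoters the shares were 16.6%, 35.7% and 6.58%. Of the 32 of 43 S phase genes with a promoter, 3 (9.38%) held a CHR match, 23 (71.9%) a CCAAT match and 9 (28.1%) an E2F match (TTTCGCGC, TTTGGCGC or their complements), against 1.18% of all promoters and 2 (4.44%) of the G2 and mitosis genes. Of the 10 rises, 7 had a promoter in the table, and 6 of these held both a CHR and a CCAAT match. Of the 10 falls, 8 had one, and 2 held a CHR match. The matches describe the letters of these windows only.

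Across the list of 54 G2 and mitosis genes, 50 rose and none fell (background 13.1% and 11.7%), with a median log2 fold change of 1.16 beside -0.0078 over all genes. The members not called were LBR, ECT2, TMPO and CTCF. In single libraries all 54 were above the reference value in SW620 on days 6, 12 and 15 and in SW620-TET2CD on days 9, 12 and 15, and 41 of 54 in SW620 day 9 and in SW620-TET2CD day 6. The median log2 ratio of the list was 0.53, 0.12, 2.40 and 1.62 on days 6, 9, 12 and 15 in SW620 and 0.17, 0.50, 1.86 and 1.97 in SW620-TET2CD. MKI67, a marker of proliferating cells, had a log2 fold change of 1.31 ± 0.33 (edgeR adjusted p = 0.016), and its RNA-rich and reference levels were 259.8 and 261.8 CPM in SW620 day 9 but 143.1 and 18.16 CPM in SW620 day 12.

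The counts of the next lists stand beside 13.1% higher and 11.7% lower over all genes. Some of their genes are also in the G2 and mitosis list, so these counts are not separate results. They are ANLN, ECT2, KIF23, AURKB, CDCA8 and BIRC5 in the cytokinesis list and CDK1, CCNB2 and CDC25C in the cyclin list. The 16 genes of cytokinesis, the final separation of daughter cells, followed with 12 rises, 1 fall (CHMP1B, an ESCRT-III subunit, -0.41) and a median of 1.12. Of 15 cyclins and cyclin-dependent kinases, 10 rose and none fell. CCNB1, cyclin B1, had a log2 fold change of 1.30, CDC25B, a phosphatase that activates CDK1, 0.60, and CCND3, cyclin D3 of G1, 0.39. Among 13 transcription factors of the cycle, 3 rose, namely FOXM1 (1.19), MYBL2 (1.08) and MYBL1 (1.00), all activators of cycle genes. Of 10 CDK inhibitors and RB family genes, 3 rose and 2 fell, and in these small lists counts of 2 or 3 lie within 1 or 2 genes of the share over all genes. The falls were CDKN1C (-0.51) and CDKN1A (-0.38), both inhibitors of cyclin-dependent kinases, and the rises included RBL1 (0.59), an RB family member.

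The S phase list behaved otherwise. Of its 43 genes 15 rose and none fell, with a median of 0.52. PCNA, the sliding clamp of DNA polymerase, was at 317.9, 236.5, 157 and 66.42 CPM in RNA-rich against 373.8, 238.8, 51.39 and 42.83 CPM in reference barcodes of SW620, and at 240.3, 227.7, 196.9 and 115.6 against 282.8, 255, 88.63 and 42.36 CPM in SW620-TET2CD. It was lower in the RNA-rich barcodes of all 4 early libraries and higher in those of all 4 late libraries, and over all 8 its log2 fold change of 0.52 ± 0.22 did not pass (edgeR adjusted p = 0.10). Leaving out any 1 of the 4 late libraries lowered the 15 rises of the list to between 0 (without SW620-TET2CD day 12) and 2 (without SW620 day 15). Over all genes, 952 of 16027 and 1731 of 16155 were called higher in these 2 fits. Of the 43 genes, 11 to 14 lay above the reference value in the early libraries and 41 to 43 in the late ones. Replication-dependent histones, which package the new DNA, had 4 rises and 1 fall among 45 of 49 tested, smaller shares than the 13.1% and 11.7% of all genes, with a median of 0.52.

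Calls depended on the model and on single libraries. Without the library block edgeR called 0 of the 16151 genes (579 at an unadjusted p under 0.05), none of the G2 and mitosis list among them, and leaving out SW620-TET2CD day 12, SW620 day 12 or SW620-TET2CD day 15 lowered the 4006 calls to 2135, 2369 and 2394. In the 4 libraries with over 500 RNA-rich barcodes alone, an alternative added after the data were seen, 285 genes were called (1.74%; 0.641% higher and 1.1% lower), with 3 rises and a median of 1.30 in the G2 and mitosis list and no rise and a median of 0.62 in the S phase list.

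Next the deeper part of the reference was used as the comparator. Against reference barcodes of 10000 to 20000 UMIs only, 992 genes (6.64%) were called, 472 higher (3.16%) and 520 lower (3.48%). The G2 and mitosis list then held 14 rises and no fall with a median of 0.83, and the S phase list no call with a median of 0.35. When RNA-rich barcodes were chosen on one set of genes and tested on the others, 4054 genes were called (1946 higher), 3746 of them shared with the 4006. This choice still used UMIs and genes per barcode, with 2017 and 2015 members in SW620 day 6 where the rule gave 2012. The sharing therefore cannot show whether the calls depend on the choice by depth. When each barcode was thinned at random to 5000 UMIs before summing, 1974 genes were called (687 or 5% higher and 1287 or 9.36% lower), with 48 rises and a median of 1.18 in the G2 and mitosis list. With members above 2 times the median UMIs of the library, an alternative added after the data were seen, 4688 genes were called (15.7% higher and 15% lower), 3169 of them shared, with 48 rises and a median of 0.84 in the G2 and mitosis list and 18 rises and a median of 0.31 in the S phase list.

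Across bins of UMIs per barcode the share of UMIs in the G2 and mitosis list was higher just above the limit than just below it on the late days. In SW620 day 12 it was 0.263%, 0.163%, 0.174% and 0.248% in barcodes of 1000 to 5000, 5000 to 10000, 10000 to 15000 and 15000 to 20000 UMIs, and 0.415%, 0.581%, 0.715% and 0.741% in those of 20000 to 25000, 25000 to 30000, 30000 to 40000 and above 40000 UMIs. In SW620-TET2CD day 12 it was 0.245%, 0.174%, 0.221%, 0.410%, 0.621%, 0.687%, 0.753% and 0.675% over the same bins. On day 15 the highest bins rested on few barcodes. In SW620 the share was 0.709% at 25000 to 30000 (16 barcodes), 0.510% at 30000 to 40000 (12) and 0.463% above 40000 UMIs (2), and in SW620-TET2CD 0.804% at 30000 to 40000 (15) and 0.380% above 40000 UMIs (9). In SW620 day 6 the share peaked at 0.894% just above the limit and was 0.690% above 40000 UMIs. In the other 3 early libraries the peak lay below the limit, at 0.825% (10000 to 15000 UMIs) in SW620 day 9, 0.815% (10000 to 15000) in SW620-TET2CD day 6 and 0.880% (15000 to 20000) in SW620-TET2CD day 9, against 0.724%, 0.772% and 0.842% just above it. From just below to just above the limit the S phase share went up on day 12, from 0.114% to 0.188% in SW620 and from 0.1995% to 0.263% in SW620-TET2CD, and down on day 15, from 0.108% to 0.0962% and from 0.195% to 0.186%. It was 0.378% and 0.332% in SW620 day 6, 0.281% and 0.287% in SW620 day 9, 0.325% and 0.310% in SW620-TET2CD day 6 and 0.313% and 0.295% in SW620-TET2CD day 9.

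**Figure D3:**
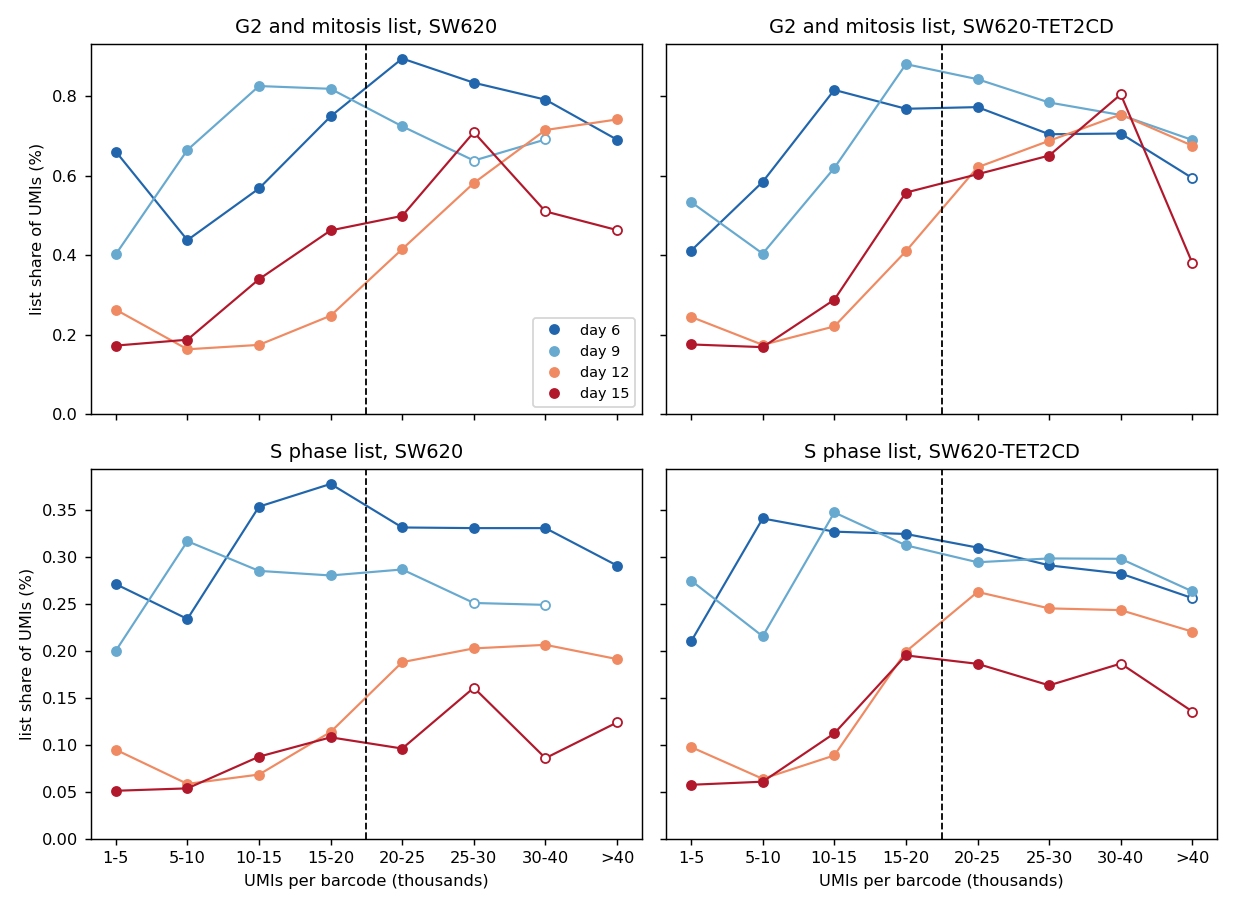
Share of UMIs (%) in the G2 and mitosis list (top) and the S phase list (bottom) by UMIs per barcode in units of 1000 UMIs (bins of unequal width), for SW620 (left) and SW620-TET2CD (right), 1 line per day. Open circles are bins of under 20 barcodes and the dashed line is 20000 UMIs. The G2 and mitosis share of SW620 day 12 rises from 0.163% to 0.741% after a first bin of 0.263%.

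The counts of the metabolic and protein synthesis lists stand beside 13.1% higher and 11.7% lower over all genes. Ribosome biogenesis factors had 21 rises and no fall among 30 (median 0.24), proteasome subunits 16 and 0 among 31 (0.12), and nuclear genes of oxidative phosphorylation (OXPHOS) 9 and 3 among 48 (0.05), near those shares. Cytosolic ribosomal proteins had 1 rise and 29 falls among 81 of 84 tested (median -0.09). The 13 mitochondrially encoded genes had no rise and 7 falls (median -0.16). Both groups were limited to at most 10% of UMIs in these genes, so the counts are a description. With barcodes thinned to equal depth, RNA-rich barcodes held fewer of these UMIs in every early library and in SW620 day 15. They held more in SW620 day 12 (331.7 against 298.4), SW620-TET2CD day 12 (350.1 against 318.3) and SW620-TET2CD day 15 (365.7 against 344.8). Glycolysis genes had 4 rises and 2 falls among 18, with a median of 0.0099 that became -0.018 under upper-quartile scaling.

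Immediate early and heat shock genes had 2 rises and 11 falls among 16 (median -0.29), beside 13.1% higher and 11.7% lower over all genes. FOS, a subunit of the AP-1 transcription factor induced within minutes of a stimulus, was at 286.9, 188.2, 492.4 and 219 CPM in RNA-rich against 354, 284.4, 801 and 345.1 CPM in reference barcodes of SW620, and at 202.3, 260.9, 394.4 and 176.1 against 285.6, 376.3, 635.1 and 296.9 CPM in SW620-TET2CD. It was lower in the RNA-rich barcodes of all 8 libraries (log2 fold change -0.59 ± 0.048; edgeR adjusted p = 0.00021). BTG2, an antiproliferative immediate early gene, fell by 0.60 ± 0.059 on the log2 scale, JUN by 0.39 and EGR1 by 0.37. The rises were HSPA1A and HSPH1, which are chaperones.

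Of 7 nuclear long non-coding RNAs 5 fell and none rose (median -0.17), beside 11.7% lower and 13.1% higher over all genes. MALAT1, retained in nuclear speckles, was at 6876, 6147, 21100 and 22840 CPM in RNA-rich against 7133, 9837, 30150 and 39930 CPM in reference barcodes of SW620, and at 4684, 7833, 12190 and 25360 against 6886, 9431, 19390 and 40670 CPM in SW620-TET2CD, lower in every library (log2 fold change -0.53 ± 0.074; edgeR adjusted p = 0.0013). KCNQ1OT1 fell by 0.55 and NEAT1, of paraspeckles, by 0.30. The late levels of MALAT1 exceeded the early ones in both groups. The limit on genes per barcode can also bear on the share of a transcript this abundant, and its part in the fall was not tested.

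Among 21 of 22 hypoxia targets 12 fell and none rose (median -0.37). Fitted on early days alone 2 of 20 rose and 2 fell, DDIT4 (0.39) and SLC2A3 (0.50) against CA9 (-0.37) and NDUFA4L2 (-0.89). These counts lie near the 11.2% higher and 7.68% lower over all genes in that fit. On late days alone none rose and 19 of 21 fell, beside 19.4% higher and 18.9% lower over all genes. Over all 8 libraries the falls included NDRG1 (-0.87) and CA9, a carbonic anhydrase induced by low oxygen (-0.52). Of 10 leading genes of late cells, chosen in earlier work on these libraries and so no independent evidence of direction, 6 fell and none rose (median -0.49). The remaining lists had few calls, and those of WNT, p53 and EMT genes rest on 1 to 3 genes each way, beside 13.1% and 11.7% over all genes. Cholesterol synthesis genes had 1 rise and 5 falls among 14 (median -0.15), WNT targets 1 and 3 among 14, p53 targets 3 and 2 among 12, epithelial to mesenchymal transition (EMT) genes 1 and 1 among 7 of 12, and epithelial markers 0 and 4 among 10 of 12 (median -0.15). No immune (4 of 12 tested), fibroblast (4 of 9) or endothelial (2 of 7) marker was called over all 8 libraries. On early days alone CD68 rose (0.53 ± 0.16, edgeR adjusted p = 0.013) and on late days alone it fell (-0.37 ± 0.080, edgeR adjusted p = 0.0015). The endothelial marker CLDN5, at 0 to 3.46 CPM in RNA-rich and 0 to 1.37 CPM in reference sums, rose on late days alone (1.27 ± 0.33, edgeR adjusted p = 0.0066), as 1 of 3 endothelial markers tested there. The part of such transcripts in the other results was not tested.

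The next question was whether these differences changed with the day. On early days the RNA-rich barcodes differed from the reference in G2 and mitosis genes but not upward in S phase genes, and on late days both lists were higher together. Fitted on days 6 and 9 alone, edgeR called 3009 genes (18.8%; 11.2% higher and 7.68% lower), with 48 rises and a median of 0.40 among the 54 G2 and mitosis genes, and 1 rise, 15 falls and a median of -0.08 among the 43 S phase genes. Fitted on days 12 and 15 alone it called 6325 (38.3%; 19.4% higher and 18.9% lower), with 54 rises and a median of 2.03 and 43 rises and a median of 1.31. PCNA had log2 fold changes of -0.18 early and 1.27 late, MCM6, a subunit of the replicative helicase, -0.28 and 0.99, and RRM2, a ribonucleotide reductase subunit, 0.048 and 2.20. CCNE2, cyclin E2 of the G1 to S transition, moved from -0.78 to 1.40, so its value over all 8 libraries was only 0.16 (edgeR adjusted p = 0.754).

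The difference between the late and early effects was itself tested as an interaction, with library as a block. Of 17267 genes, 3442 (19.9%) passed, 2149 with a higher effect late (12.4%) and 1293 with a lower one (7.49%). Under upper-quartile scaling the split was 1850 higher and 1753 lower, and thinning before summing left 2084 calls, 1439 higher and 645 lower. All 43 S phase genes passed upward, with a median difference of 1.48 on the log2 scale, as did 52 of 54 G2 and mitosis genes (1.63). Among 45 histones 32 passed upward and 3 downward, and of the cycle transcription factors 11 of 13 passed upward. Of 21 hypoxia targets 16 passed downward and none upward (-0.68), and of 18 glycolysis genes 11 downward and 1 upward. HIST1H1B, a linker histone, was at 124.3, 98.57, 80.72 and 31.6 CPM in RNA-rich against 114.8, 149.9, 13.93 and 11.54 CPM in reference barcodes of SW620, and at 79.55, 116.5, 125.9 and 80.71 against 101.1, 110.6, 23.35 and 17.57 CPM in SW620-TET2CD. The 4 late reference levels were below every other value of this gene.

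SDCBP2, a syntenin family protein, went the other way, at 7.582, 5.446, 15.77 and 69.6 CPM in RNA-rich against 5.872, 5.499, 43.36 and 132.8 CPM in reference barcodes of SW620, and at 7.843, 6.032, 9.907 and 23.47 against 6.314, 4.776, 24.57 and 60.17 CPM in SW620-TET2CD. Reference levels rose late, and the RNA-rich levels of the same libraries stayed below them (difference between the effects -1.63 ± 0.12, edgeR adjusted p = 6.8e-12). The median UMIs of the reference barcodes ran from 6640 to 13479 in the early and from 7127 to 13111 in the late libraries, and the part of depth in these differences was not tested.

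**Figure D4:**
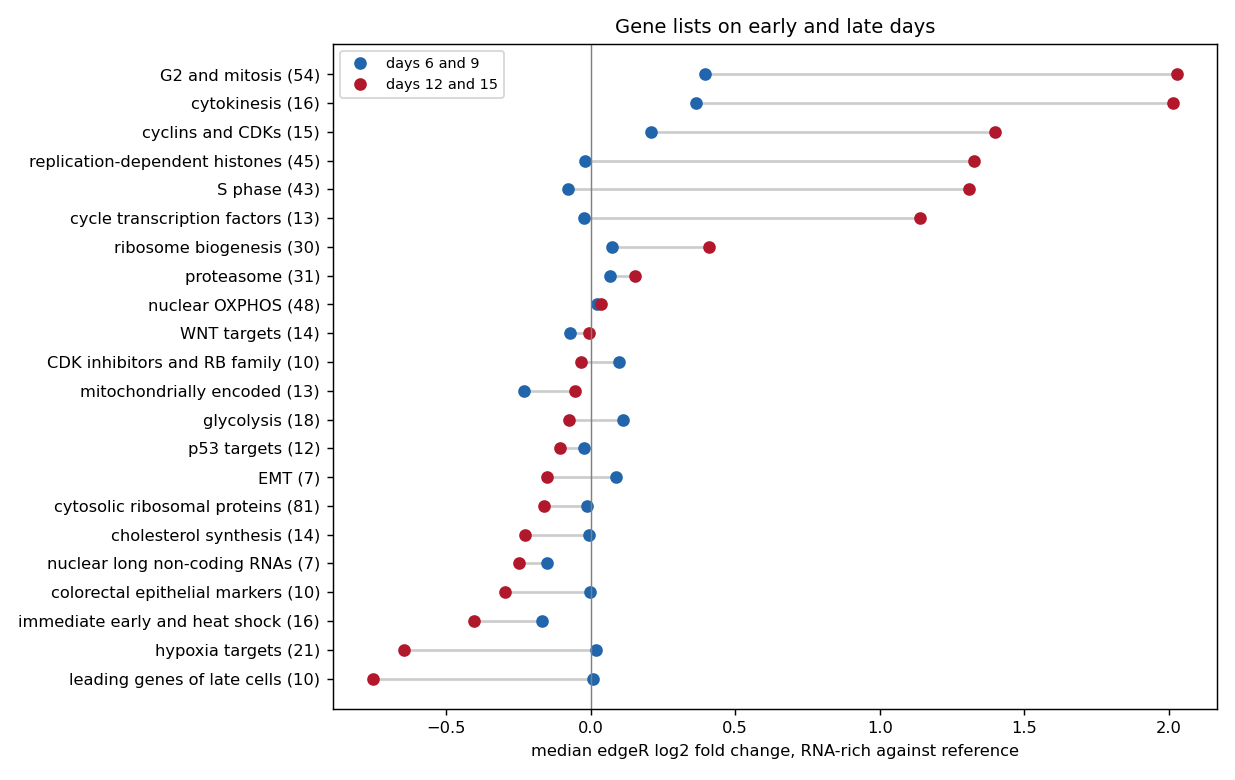
Median edgeR log2 fold change of RNA-rich against reference barcodes for each gene list (number of genes tested in brackets), fitted on days 6 and 9 (blue) and on days 12 and 15 (red). The G2 and mitosis list moves from 0.40 to 2.03 and the S phase list from -0.08 to 1.31, while the hypoxia and late-cell lists move to the left.

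No gene was called for a difference of the RNA-rich effect between the lines. edgeR called 0 of 17267 genes, with 265 at an unadjusted p under 0.05, and DESeq2 called 0. That the effects act alike in both lines is not shown by this.

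Counts of RNA per barcode were then compared at 1 depth. Each of the 6877 RNA-rich and 43612 reference barcodes was thinned to 5000 UMIs, and 4670 shallower reference barcodes were left out. The G2 and mitosis list then took 35.1 UMIs per RNA-rich barcode and 21.0 per reference barcode, averaged over libraries, and was higher in 8 of 8 libraries (mean difference 14.1 ± 6.48, SD; exact sign-flip permutation over 256 arrangements, adjusted p = 0.0326 over 25 measures). The lists of cyclins and CDKs, cytokinesis, proteasome and EMT genes were also higher in 8 of 8 and the immediate early and heat shock list in 0 of 8, each with an adjusted p of 0.0326 by the exact permutation test. These are sums of UMIs, and the cyclin and cytokinesis lists share genes with the G2 and mitosis list. By gene, VIM, an intermediate filament protein, rose in the EMT list (log2 fold change 0.33), FN1, fibronectin, fell (-0.66), and the other 5 tested were not called. The S phase list took 12.5 against 9.98 UMIs, higher in 5 of 8 libraries (exact permutation adjusted p = 0.167). After thinning the median genes per barcode ran from 1894 to 2074.5 in RNA-rich and from 1816 to 2025 in reference barcodes.

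A barcode was called high in a list if it exceeded the 90th percentile of the thinned reference barcodes of its own library. High for G2 and mitosis were 31.6% of RNA-rich and 9.58% of reference barcodes on average, and 6 of 8 libraries were higher (exact permutation adjusted p = 0.0888). The RNA-rich share was the lower one in SW620 day 9, at 3.45% against 9.85%, and in SW620-TET2CD day 6, at 7.06% against 9.95%. For S phase these shares were 21.7% and 8.98%, and 4 of 8 were higher (adjusted p = 0.166 by the exact permutation test). The S phase shares in RNA-rich barcodes were 5.37%, 0%, 47.0% and 28.7% in SW620 on days 6, 9, 12 and 15 and 2.73%, 4.77%, 36.8% and 48.0% in SW620-TET2CD. The limits were 28, 26, 7 and 6 UMIs in SW620 and 26, 26, 14 and 8 in SW620-TET2CD, so these shares cannot be compared between days. Mean S phase UMIs per RNA-rich barcode were lower late, at 17.1, 13.7, 9.89 and 5.43 in SW620 and 15.5, 14.9, 12.6 and 10.8 in SW620-TET2CD. The 0 of 87 barcodes in SW620 day 9 allows a share of up to 3.45%, taken as 3 counts of the total.

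With 1 limit for all libraries, over 41 of 5000 UMIs in the G2 and mitosis list, chosen after the data were seen, the RNA-rich shares were 48.7%, 36.8%, 20.8% and 25.6% in SW620 and 35.8%, 47.3%, 32.1% and 31.0% in SW620-TET2CD. The reference shares were 22.4%, 31.1%, 2.20% and 4.57%, and 28.4%, 23.5%, 5.33% and 3.90%. The RNA-rich share was the higher one in 8 of 8 libraries, including the 2 in which it was the lower one under the limits of each library, by 19.6 ± 8.60 points (SD; exact permutation adjusted p = 0.0279). The adjustment put this measure in place of the share under each library's own limit and does not count the choice of the limit. In SW620 day 9 the exact 95% interval of the RNA-rich share, 26.7 to 47.8, held the reference share. Of the barcodes over this limit, 73.8% in SW620 day 12 (237 barcodes, exact 95% interval 68.7 to 78.6) and 71.5% in SW620-TET2CD day 12 (509 barcodes, 68.0 to 74.8) were RNA-rich, although RNA-rich barcodes made up 23.0% and 29.4% of the thinned barcodes there. In SW620 day 6 the share was 44.3% against 26.8%, in SW620-TET2CD day 9 25.8% against 14.7%, and in SW620 day 9 1.70% against 1.44%.

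The mean share over the limit went from 26.4% early to 3.997% late in reference barcodes, a ratio of 6.60 and a fall of 22.4 points. With RNA-rich barcodes included it went from 29.1% to 7.65%, a ratio of 3.81 and a fall of 21.5 points, and in RNA-rich barcodes from 42.1% to 27.3%, a ratio of 1.54 and a fall of 14.8 points. These are means of 4 libraries each, given as a description.

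**Figure D5:**
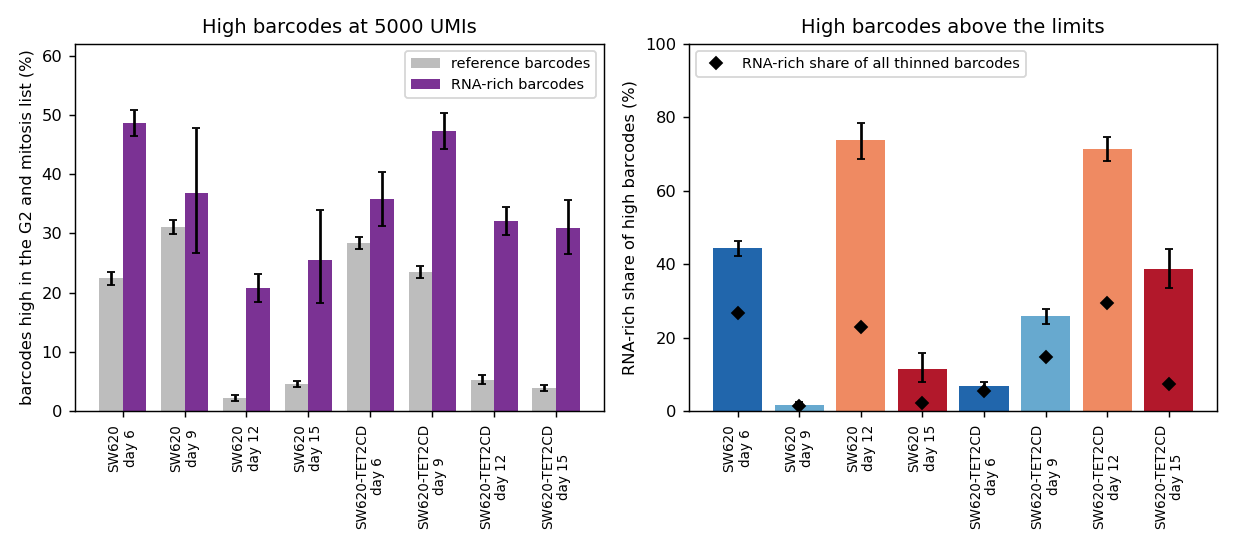
Left, share of thinned barcodes with over 41 of 5000 UMIs in the G2 and mitosis list (%), RNA-rich in purple and reference in grey, by library, with exact 95% intervals. Right, RNA-rich share of the barcodes over that limit (%), with diamonds for the RNA-rich share of all thinned barcodes. The purple bar is the higher one in all 8 libraries, and on day 12 the right bars reach 73.8% and 71.5%.

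Signs of cell pairs were looked for with a doublet score and with lists that were high together. Scrublet, which scores each barcode against simulated pairs, called at most 0.0789% of a library. Whether it missed pairs or few were present was not tested, so its calls are not read here. The median Scrublet score was higher in the RNA-rich barcodes of 8 of 8 libraries, at 0.0740 to 0.184 against 0.0651 to 0.102 in reference barcodes. The score was computed on counts that were not thinned, and the members were chosen for high UMIs and genes. It is therefore a description, and the part of depth in it was not tested. The share of RNA-rich barcodes high in both the S phase and the G2 and mitosis lists was 35.99%, 25.6%, 19.96% and 41.0% in SW620 day 12, SW620 day 15, SW620-TET2CD day 12 and SW620-TET2CD day 15, against 21.4%, 13.3%, 18.1% and 27.3% from the product of the single shares. On early days it was at most 0.374%, below the product in 3 libraries and at 0 for both in SW620 day 9. In late reference barcodes both lists were high in 2.57% to 5.38%, against products of 0.778% to 0.882%. The late limits ran from 6 to 14 UMIs for S phase and from 13 to 26 UMIs for G2 and mitosis. Early reference means were at least 14.7 and 28.8 UMIs, so an average early reference barcode would exceed both late limits. The late shares high in both lists therefore cannot tell pairs from single dividing cells. Over 8 libraries the share high in both lists was 15.4% in RNA-rich and 2.26% in reference barcodes (exact permutation adjusted p = 0.0901). In the RNA-rich barcodes, the list of transgene-high cells and the G2 and mitosis list were high together in 0.683%, 1.31%, 7.18% and 7.56% of SW620-TET2CD barcodes on days 6, 9, 12 and 15, against products of 0.949%, 1.37%, 7.87% and 9.15%. The leading genes of late cells and the G2 and mitosis list were high together in a share below the product in the RNA-rich barcodes of 6 of 8 libraries and in the reference barcodes of 7 of 8. In SW620-TET2CD day 12 it was 1.196% against 1.61% in RNA-rich and 0.525% against 0.867% in reference barcodes. The differences from these products were not tested. The part of cell pairs in these values was not tested, and pairs of cells of 1 line cannot be told apart from single large cells by genotype here.

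Within the RNA-rich barcodes the lines and the days were compared directly. TET2 reads mark the transgene as far as they match the gene. TET2 was at 1.984, 0.5392, 3.345 and 3.472 CPM in the RNA-rich barcodes of SW620 on days 6, 9, 12 and 15 and at 230.2, 87.85, 57.91 and 67.24 CPM in those of SW620-TET2CD, with no overlap (log2 fold change 5.45 ± 0.32; edgeR adjusted p = 1.1e-12). Of 14341 genes, 553 differed between the lines (3.86%), 293 higher (2.04%) and 260 lower (1.81%) in SW620-TET2CD, with day as a block. Without the block 42 were higher and 1 lower, and without SW620 day 6 the split was 302 higher and 400 lower. No S phase and no G2 and mitosis gene was among them, with medians of 0.18 and 0.098. DKK4, a secreted WNT antagonist, was at 0, 1.078, 0 and 0 CPM in SW620 and at 8.763, 20.39, 44.46 and 48.26 CPM in SW620-TET2CD. RAB34, a small GTPase, was at most 0.5392 CPM in SW620 and 16.12 to 30.82 CPM in SW620-TET2CD, and H19, an imprinted long non-coding RNA, at most 0.3472 CPM in SW620 and 7.05 to 41.93 CPM in SW620-TET2CD. CALML3, a calmodulin-like protein, was higher in SW620-TET2CD by 4.42 on the log2 scale. Lower in SW620-TET2CD were EPHA4, an ephrin receptor (-1.55), PHGR1 (-1.54), AC008105.3 (-1.38), KLK1, a kallikrein protease (-1.33), and TNNT1, a troponin (-1.31). Leaving out SW620-TET2CD day 12, SW620 day 12 or SW620-TET2CD day 9 lowered the 553 calls to 263, 269 and 325.

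Late RNA-rich barcodes differed from early ones in 5985 of 14341 genes (41.7%), 3028 higher (21.1%) and 2957 lower (20.6%), with line as a block. Under upper-quartile scaling, which moved the median of all genes by 0.122 on the log2 scale, the split was 3968 higher and 2273 lower. The highest rise was in NDUFA4L2, a mitochondrial protein induced by low oxygen. It was at 0.2659, 4.314, 25.55 and 17.01 CPM in SW620 and at 0.3022, 1.523, 46.08 and 24.13 CPM in SW620-TET2CD on days 6, 9, 12 and 15, and every late value lay above every early one (log2 fold change 5.17). The other highest rises were LEMD1 (4.01), AC008105.3 (3.74), DDIT4, a stress-induced inhibitor of mTORC1 (3.61), and MIR210HG, host of a hypoxia-induced microRNA (3.23). ALDH3A1, an aldehyde dehydrogenase, went from 41.95 and 26.42 CPM on days 6 and 9 to 4.549 and 2.43 CPM on days 12 and 15 in SW620, and from 51.87 and 20.95 to 6.482 and 3.857 CPM in SW620-TET2CD (log2 fold change -2.91). ANXA1 (-2.65), TAGLN, an actin-binding protein (-2.36), RMRP (-2.13) and ATAD3B (-2.11) also fell. Of 20 hypoxia targets 16 rose and none fell (median 1.67), and of the 10 leading genes of late cells all rose, a list chosen on these libraries. In the other direction 32 of 43 S phase genes (median -0.83), 36 of 54 G2 and mitosis genes (-0.50), 27 of 30 ribosome biogenesis genes, 29 of 31 proteasome genes and 35 of 48 nuclear OXPHOS genes fell. Of 10 CDK inhibitors and RB family genes 6 rose and 1 fell. Leaving out SW620 day 6 lowered the calls to 3747.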

How the data were processed

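Deposited UMI counts per gene and barcode of the 8 single-cell libraries were used. Per the labels and the study's methods, the authors prepared them with the 10x Chromium 3′ v3.1 kit and Cell Ranger 4.0 on GRCh38. The study's methods also name a step that evens out depth between runs. The deposited matrices differ in total UMIs and were used unchanged, so the limits may select other barcodes, and other shares per library, than in the study. No removal of doublets was named in the sources used here. The bulk files were not analysed here.

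Counts were summed per library and group where at least 50 RNA-rich barcodes were present. Low genes were filtered with filterByExpr, sums were scaled by TMM and tested with edgeR 4.0.16 (R 4.3.3) by its quasi-likelihood test, with library, day or line as a block, and p-values were adjusted by the Benjamini-Hochberg method at 0.05. DESeq2 1.42.0 was an alternative. Named genes were the 10 largest changes each way (5 for other comparisons) among called genes at a mean of at least 8 CPM. They had to change the same way in every library, on every day or, for late against early, in the mean of each line. The tests were run on simulated data first. Intervals are exact 95% and cover counting error only. The members and gene lists were chosen with earlier results of these data known.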

Additional observations from a re-analysis of the deposited data

Results flagged for a closer look

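The effect of being RNA-rich differed between late and early days in 3442 genes by the edgeR interaction test. The genes with the largest higher effect late were ESCO2, a cohesin acetyltransferase, by 2.42 on the log2 scale (mean log2 ratio -0.015 early and 2.25 late), HIST1H1B by 2.40 (-0.19 and 2.12), HIST1H3B by 2.37 (-0.29 and 1.97), HIST1H3G by 2.33 (0.042 and 2.07) and DDIAS by 2.28 (0.28 and 2.31). The genes with the deepest lower effect late were SDCBP2 at -1.63 (0.23 early and -1.24 late), HIST1H2BD at -1.31 (0.18 and -1.12), NDRG1 at -1.29 (0.20 and -1.06), the glucose transporter SLC2A3 at -1.18 (0.50 and -0.72) and the integrin ITGA5 at -1.18 (0.22 and -0.59). The ITGA5 ratio in SW620 day 9 was -0.78, below those of SW620 day 12 (-0.47) and SW620 day 15 (-0.61). HIST1H2BD went against the other 3 histones named here. HIST1H3B and HIST1H3G belong to a family of near-identical copies, so their counts may be split between copies. The kit reads 3′ ends, and how fully it captured histone transcripts was not tested. The cause of the differences was not tested.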

How the results depend on the processing

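Genes called both in the reported fit and in an alternative had the opposite sign in 0 cases in every alternative run. The alternatives drew on the same libraries, so this count is a description. Genes called in the fits on early and on late days alone did reverse between these fits, as CCNE2 (-0.78 and 1.40) and DDIT4 (0.39 and -0.56). Values not called in the reported fit also turned. Among them were the share differences (-3.19 to 9.55 and -3.46 to 8.07 points without 1 library). On days 6 and 9 only, so did the S phase median (0.52 to -0.08), PCNA (0.52 to -0.18) and CCNE2 (0.16 to -0.78). Of the differences between RNA-rich and reference barcodes, 4006 calls became 0 without the block, 285 in libraries with over 500 RNA-rich barcodes, 992 against the reference of 10000 to 20000 UMIs, 1974 after thinning and 6325 on days 12 and 15 only, and leaving out 1 library gave 2135 to 4069. The late against early effect fell from 3442 to 2084 calls after thinning (2589 to 3876 without 1 library). The 553 calls between lines became 338 with DESeq2 and 43 without the block (263 to 716 without 1 library), and the 5985 calls between days ran from 3747 to 6773 without 1 library. After thinning, leaving out 1 library gave mean G2 and mitosis differences of 12.9 to 15.5 UMIs, with adjusted exact permutation p of 0.0434 to 0.0651, where 7 libraries allow no p below 0.0156. The common limit gave 19.6 points (adjusted exact permutation p = 0.0279, which does not count the choice of that limit). The cause was not tested. Of 460 values for the 20 genes named in the first comparison, 420 kept their side of the threshold and 40 lost the call, 20 of them without the block. No paired analysis by replicate number was possible because all libraries carry the same number, and pairing was by library, day or line instead. Shares of RNA-rich barcodes in SW620 on days 9 and 15 rest on 87 and 129 barcodes.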

Other observations

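In SW620-TET2CD a larger share of RNA-rich than of reference barcodes lay high in the summed list of 4 genes of transgene-high cells. At 5000 UMIs, in the order of days, 13.4%, 7.29%, 15.995% and 16.1% of RNA-rich barcodes lay high in the list, against 7.82%, 7.001%, 9.79% and 8.74% of reference barcodes. On day 9 the shares differed by less than on the other days. Over all 8 libraries 3 of the 4 genes rose in the RNA-rich barcodes and none fell (median 0.62; 13.1% higher and 11.7% lower over all genes), and TET2 itself had a log2 fold change of 0.48 ± 0.15 (edgeR adjusted p = 0.032). At 5000 UMIs the list took at most 0.0359 UMIs per barcode in either group of SW620 and 0.440 to 1.41 in SW620-TET2CD. The fit over 8 libraries thus drew mostly on SW620-TET2CD. In SW620-TET2CD, TET2 was at 231.9, 88.43, 57.59 and 63.94 CPM in RNA-rich and at 111.9, 60.05, 38.86 and 37.13 CPM in reference barcodes, the RNA-rich value being the higher one on all 4 days. The list was chosen on these libraries and is no independent evidence.

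The share of UMIs in the list of nuclear long non-coding RNAs did not decline at every step of UMIs per barcode. In the 4 libraries that held the most RNA-rich barcodes it was lower above 40000 than at 1000 to 5000 UMIs. In SW620 day 6 it was 0.525% at 1000 to 5000, 0.914% at 5000 to 10000, 0.798% at 20000 to 25000 and 0.387% above 40000 UMIs. In SW620 day 12 it went from 3.78% over 3.88% at 5000 to 10000 to 1.67%, in SW620-TET2CD day 9 from 1.45% to 0.455% and in SW620-TET2CD day 12 from 2.96% to 0.996%.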
